A study of Mus musculus with 7 samples.

Results

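Skeletal muscle that was taken along with nasal tissue can be read from genes of fast muscle fibres, and 10 such genes were examined here: *Acta1*, *Ckm*, *Myh1*, *Myh2*, *Myh4*, *Mylpf*, *Tnnt3*, *Tnni2*, *Actn3* and *Atp2a1*. Their probes were those that are not controls and whose transcript accession maps to 1 of these symbols, which gave 12 of the 39429 probes on the array, for 10 of 32095 names. Testing required a probe to be well above background, in the DEP or the control channel, on 3 or more of the 7 arrays, as 11 of these 12 probes were, at least 1 for every gene. Tested probes of the whole array numbered 25162 and stood for 20664 names. Each gene is represented by the brightest of its tested probes.

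All mice were female BALB/c, given as 6 weeks of age in the labels. Mice of the DEP group inhaled diesel exhaust particles (DEPs) at 100 μg/m3 for 1 h a day on 5 days a week, for 4 weeks or for 8 weeks. The control group received nebulised saline, the carrier of the particles. RNA came from nasal tissue with the septum and turbinates, collected after the jaw had been removed. Each 2-colour array carried DEP RNA in Cy5 and control RNA in Cy3, with 4 arrays at 4 weeks on 1 slide and 3 arrays at 8 weeks on another. Exposure time therefore cannot be told apart from slide, nor exposure from dye. Tissue was taken after exposure and age at sampling is not given, so any difference of age between the times cannot be told apart either. The sources used here do not say how many mice went into 1 RNA, whether the control RNA of different arrays was pooled, or whether the controls on the 8-week arrays were kept for 8 weeks, and p-values then measure only the spread between arrays. Probes well above background on a single array numbered 18601 to 25069 for DEP RNA and 16985 to 26927 for control RNA.

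Skeletal muscle shortens when myosin motors of the thick filament pull on actin of the thin filament, and the speed of a fibre depends on which myosin heavy chain it makes. Fast fibres use *Myh2*, *Myh1* or *Myh4*, which mark the fibre types IIA, IIX and IIB, while slow fibres use *Myh7*. Troponin and tropomyosin let calcium switch the thin filament on, a pump returns the calcium to its store, and creatine kinase refills ATP. None of these genes is a marker of the nasal lining, and in whole tissue fewer muscle cells and less muscle RNA per cell cannot be told apart. Both channels were well above background on all 7 arrays for each of the 11 tested probes, so RNA of fast muscle was measured in every RNA, control RNA included.

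After 4 weeks of DEP exposure the fast muscle genes did not move as a group. *Myh1* and *Myh2* were higher in DEP RNA, *Myh4* and *Mylpf* were lower, *Tnnt3* was higher by a small amount, and the other 5 did not pass the test. A gene was called when its limma p, adjusted by Benjamini-Hochberg over all tested probes, was 0.05 or less. With 3 of 10 members higher and 2 of 10 lower, beside 21.7% and 16.4% of all tested names, the share called was near the background. Their median log2 ratio of DEP over control was 0.021, against 0.0020 over all names. At the study's own thresholds, an unadjusted p of at most 0.01 with at least a 2-fold change, 0 members passed beside 1.3% of all names in either direction, and 0 passed by the methods' t-test, beside 1.22%.

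After 8 weeks most of the group lay lower in DEP RNA. *Ckm*, *Atp2a1*, *Actn3*, *Acta1*, *Tnni2* and *Tnnt3* were lower, *Myh4* was higher, and *Myh1*, *Myh2* and *Mylpf* did not pass. This made 6 of 10 members lower, beside 16.9% of all names, and 1 of 10 higher, beside 20.4%. The median log2 ratio of the members was -0.51, against 0.013 over all names. With arrays centred on their median in place of loess, which moved the median of all names to -0.11, 9 of 10 members were lower and 1 higher, with 6872 of 20664 names lower and 2536 higher in place of 3499 and 4208. *Ckm* and *Atp2a1* also passed the study's thresholds, 2 of 10 members beside 2.94% of all names. The difference between the exposure times was tested in the same model: 8 of 10 members had a lower ratio at 8 weeks than at 4 weeks, beside 16.1% of all names, and only *Myh4* among the members had a higher ratio, beside 14.8% of all names. The median difference was -0.60 on the log2 scale, against 0.019 over all names.

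**Figure D1:**
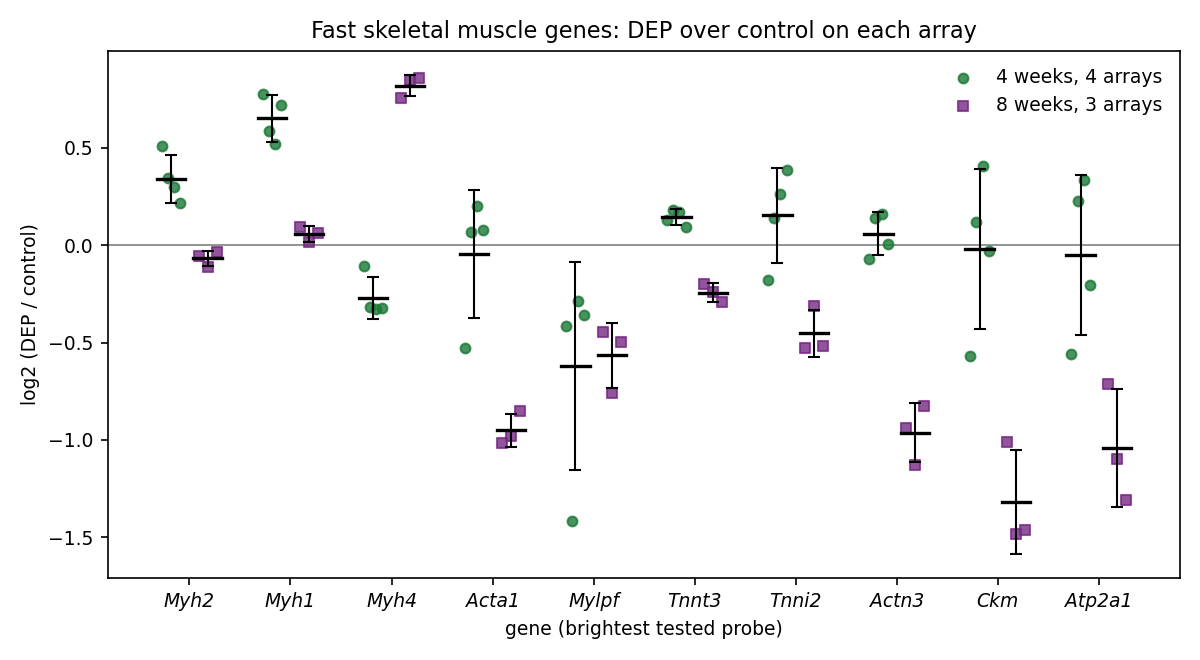
Log2 ratio of DEP over control (vertical axis) of the 10 fast skeletal muscle genes (horizontal axis) on each of 4 arrays at 4 weeks (circles) and 3 arrays at 8 weeks (squares), with the mean (bar) and SD. *Myh4* is the gene whose 8-week arrays all lie above its 4-week arrays, *Mylpf* overlaps between times, and the other 8 lie lower at 8 weeks on every array.

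The fast myosin heavy chain genes differed from each other in direction. In the RefSeq annotation of GRCm38.p6 they are neighbours on chromosome 11, in the order *Myh3*, *Myh2*, *Myh1*, *Myh4*, *Myh8* and *Myh13*, with noncoding genes between some of them. The 250 bases before the annotated start of the 3 members are shown, read 5′ to 3′ on the plus strand, because these adjacent genes went different ways. Capitals mark TATAAA on either strand, the sequence of a TATA box, at which RNA polymerase II is often positioned.
*Myh2*, chr11:67170777-67171026: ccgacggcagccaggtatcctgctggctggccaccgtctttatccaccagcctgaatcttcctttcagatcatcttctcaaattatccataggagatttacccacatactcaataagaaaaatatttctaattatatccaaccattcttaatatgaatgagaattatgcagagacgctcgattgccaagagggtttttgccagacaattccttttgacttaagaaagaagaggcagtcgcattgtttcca
*Myh1*, chr11:67199852-67200101: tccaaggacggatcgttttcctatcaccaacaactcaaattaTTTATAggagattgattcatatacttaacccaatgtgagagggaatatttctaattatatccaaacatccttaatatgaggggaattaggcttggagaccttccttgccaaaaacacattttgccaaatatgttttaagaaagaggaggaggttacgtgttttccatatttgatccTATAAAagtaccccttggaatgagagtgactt
*Myh4*, chr11:67237562-67237811: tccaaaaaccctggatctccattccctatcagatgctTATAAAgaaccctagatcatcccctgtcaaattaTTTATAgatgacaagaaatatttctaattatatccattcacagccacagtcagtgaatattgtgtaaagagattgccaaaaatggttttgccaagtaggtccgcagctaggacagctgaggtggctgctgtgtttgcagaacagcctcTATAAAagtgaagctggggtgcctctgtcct
These letters occurred 3 times before *Myh4*, 2 times before *Myh1* and 0 times before *Myh2*, and at least once in 12.4% of all 32851 promoters of the same length. The windows are not in register. That of *Myh2* ends in tttcca, letters that in *Myh1* stand shortly before its last TATAAA. Bases beyond the annotated start were not searched, so the 0 does not show that *Myh2* lacks this sequence. The site of the muscle factor MEF2, searched on both strands, occurred once before *Myh1* and once before *Myh4*, each time overlapping a TATAAA, and was found in 2.92% of all promoters. The E-box CANNTG, to which MyoD and its relatives bind, was present 2 times before *Myh4*, was not found in the windows of *Myh1* and *Myh2*, and was held by 66.2% of all promoters. RefSeq promoters were matched for 7 of the 10 members. The other promoters matched were those of *Acta1*, *Ckm*, *Mylpf* and *Atp2a1*. A match of letters is a description and not a measured binding site.

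*Myh1*, the IIX myosin, had log2 ratios of 0.78, 0.59, 0.52 and 0.72 on replicates 1 to 4 at 4 weeks and of 0.095, 0.015 and 0.063 on replicates 1 to 3 at 8 weeks. It was above 0 on every array, and the values of the 2 times did not overlap. The mean at 4 weeks was 0.65 ± 0.12 (SD, n = 4), a 1.57-fold higher level in DEP RNA (adjusted p = 0.00012), and at 8 weeks it was 0.057 ± 0.040 (SD, n = 3), which did not pass (adjusted p = 0.53). The ratio differed between times by -0.59 (SE 0.084, adjusted p = 0.0019). With arrays centred on their median in place of loess the 8-week value of *Myh1* was -0.20 (adjusted p = 0.046), so it has no settled direction at 8 weeks.

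*Myh2*, the IIA myosin, had log2 ratios of 0.51, 0.34, 0.30 and 0.21 at 4 weeks and of -0.057, -0.11 and -0.035 at 8 weeks. All 4-week arrays were above 0 and all 8-week arrays slightly below. Its mean of 0.34 ± 0.12 (SD, n = 4) at 4 weeks was 1.27-fold higher in DEP RNA (adjusted p = 0.0028), and its 8-week mean of -0.068 ± 0.039 (SD, n = 3) did not pass (adjusted p = 0.46). From the processed signals of the scanner software the 4-week value was 0.17 (adjusted p = 0.033) and the 8-week value -0.25 (adjusted p = 0.016). The difference between times was -0.41 (SE 0.085, adjusted p = 0.010).

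*Myh4*, the IIB myosin of the fastest fibres, ran the other way. Its log2 ratios were -0.11, -0.32, -0.33 and -0.32 at 4 weeks and 0.76, 0.85 and 0.86 at 8 weeks, with every array below 0 at 4 weeks and above 0 at 8 weeks. The 4-week mean of -0.27 ± 0.11 (SD, n = 4) was 1.21-fold lower in DEP RNA (adjusted p = 0.0065) and the 8-week mean of 0.82 ± 0.056 (SD, n = 3) was 1.77-fold higher (adjusted p = 5.2e-05). The difference of 1.09 between times (SE 0.082, adjusted p = 0.00011) was called under every alternative run. Set against *Myh1* within each array, the log2 ratio of *Myh4* stood at -1.05 to -0.85 on the 4-week arrays and at 0.66 to 0.83 on the 8-week arrays. Against *Myh2* the gap ran from -0.66 to -0.54 at 4 weeks and from 0.81 to 0.96 at 8 weeks, so the arrays of each time stood together. The coding sequences of these myosins are closely related, the probe sequences were not used here, and how far each probe reads its own transcript alone was not tested.

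Thin filament genes were led by *Acta1*, the actin of skeletal muscle. Its log2 ratios were -0.53, 0.067, 0.20 and 0.080 at 4 weeks and -1.02, -0.98 and -0.85 at 8 weeks. Replicate 1 stood below the other 4-week arrays, and all 8-week arrays lay lower still. The mean was -0.045 ± 0.33 (SD, n = 4) at 4 weeks (adjusted p = 0.78), and at 8 weeks -0.95 ± 0.086 (SD, n = 3), a 1.93-fold lower level in DEP RNA (adjusted p = 0.0011). The difference of -0.91 (SE 0.17) between times passed as well (adjusted p = 0.0067).

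*Tnnt3* encodes the fast troponin T, which ties the troponin complex to tropomyosin. Its brighter probe gave 0.13, 0.18, 0.17 and 0.093 at 4 weeks and -0.20, -0.24 and -0.29 at 8 weeks, small values that held their sign on every array of a time. The means were 0.14 ± 0.041 (SD, n = 4, adjusted p = 0.032) and -0.24 ± 0.047 (SD, n = 3, adjusted p = 0.0071), with a difference of -0.39 (SE 0.065, adjusted p = 0.0042). The 4-week call was lost in 9 of 16 alternatives: without replicate 2, 3 or 4 of 4 weeks (adjusted p = 0.13, 0.11 and 0.063) or replicate 2 of 8 weeks (0.059), with median centring (0.10, adjusted p = 0.24), from the processed signals (0.079), with the background fitted on every spot (0.050), from the 4-week arrays alone (0.053) and by the methods' t-test (0.49). The methods' t-test also lost the 8-week call (adjusted p = 0.077). That test compares groups and does not use the pairing of RNAs on an array. Between the 4-week arrays the SD of the *Tnnt3* level was 0.19 in control RNA and 0.17 in DEP RNA, against 0.041 for the ratio. With median centring the 8-week value was -0.40. A second probe of *Tnnt3* gave 0.33, 0.27, 0.25 and 0.18 at 4 weeks and -0.055, -0.23 and -0.31 at 8 weeks, with the same directions, and passed at both times (adjusted p = 0.0087 and 0.043).

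For *Tnni2*, the fast troponin I that holds actin off until calcium arrives, the log2 ratios were -0.18, 0.14, 0.27 and 0.39 at 4 weeks and -0.53, -0.31 and -0.52 at 8 weeks. Only replicate 1 of the 4-week arrays was below 0, while all 8-week arrays were. The mean was 0.15 ± 0.24 (SD, n = 4) at 4 weeks, which did not pass (adjusted p = 0.22), and -0.45 ± 0.12 (SD, n = 3) at 8 weeks, 1.37-fold lower in DEP RNA (adjusted p = 0.012). Without replicate 1 of 4 weeks the 4-week value was 0.26 (adjusted p = 0.027). The 8-week call was lost without replicate 1 (adjusted p = 0.062) or replicate 3 of 8 weeks (adjusted p = 0.065), and the difference of -0.61 (SE 0.14, adjusted p = 0.015) was lost without replicate 3 of 8 weeks (adjusted p = 0.054) and from the processed signals (-0.44, adjusted p = 0.077).

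*Actn3*, the α-actinin of the Z-disc of fast fibres, had log2 ratios of -0.068, 0.14, 0.16 and 0.0072 at 4 weeks and of -0.94, -1.13 and -0.83 at 8 weeks. The first lie around 0 and the second are far below them. The 8-week mean of -0.96 ± 0.15 (SD, n = 3) was 1.95-fold lower in DEP RNA (adjusted p = 6.2e-05), whereas the 4-week mean of 0.060 ± 0.11 (SD, n = 4) did not pass (adjusted p = 0.49). Its difference of -1.02 (SE 0.099, adjusted p = 0.00035) was called under every alternative run.

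*Mylpf*, the fast regulatory light chain, was the dim member. The median signal of its tested probe before background correction was 85 to 195 in DEP RNA and 145 to 494 in control RNA, and its other probe was well above background on 1 of 7 arrays in DEP RNA and 2 of 7 in control RNA. The log2 ratios were -0.42, -1.42, -0.29 and -0.36 at 4 weeks and -0.44, -0.76 and -0.50 at 8 weeks, below 0 on all 7 arrays and overlapping between times. The 4-week mean of -0.62 ± 0.53 (SD, n = 4, adjusted p = 0.028) rested in part on replicate 2 and was -0.35 without it (adjusted p = 0.016). At 8 weeks the mean of -0.57 ± 0.17 (SD, n = 3) missed the threshold (adjusted p = 0.063) and passed under 7 of the alternatives. The difference of 0.052 (SE 0.27, adjusted p = 0.90) had a 95% interval of -0.57 to 0.68. From the processed signals the 8-week value of *Mylpf* was -1.38 (adjusted p = 0.0070) and the difference -0.64 (adjusted p = 0.18), so neither its size nor the sign of its difference is settled.

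*Ckm* is the muscle creatine kinase, which refills ATP. It had log2 ratios of -0.57, 0.12, 0.41 and -0.032 at 4 weeks and of -1.01, -1.48 and -1.46 at 8 weeks. The 4-week arrays scattered on both sides of 0, and every 8-week array lay below them. The 4-week mean was -0.018 ± 0.41 (SD, n = 4, adjusted p = 0.94), and the 8-week mean was -1.32 ± 0.27 (SD, n = 3), 2.49-fold lower in DEP RNA (adjusted p = 0.00096). The difference of -1.30 (SE 0.23) passed too (adjusted p = 0.0051).

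*Atp2a1*, the calcium pump of the sarcoplasmic reticulum in fast fibres, had log2 ratios of -0.56, 0.23, 0.34 and -0.20 at 4 weeks and of -0.71, -1.10 and -1.31 at 8 weeks. Replicate 1 of 4 weeks was again the lowest of its time, close to the highest 8-week array. The 4-week mean of -0.049 ± 0.41 (SD, n = 4) did not pass (adjusted p = 0.82), and the 8-week mean of -1.04 ± 0.30 (SD, n = 3) was 2.06-fold lower in DEP RNA (adjusted p = 0.0033, and 0.063 by the methods' t-test). Without replicate 2 or replicate 3 of 8 weeks the difference of -0.99 (SE 0.24, adjusted p = 0.017) was lost (adjusted p = 0.065 and 0.066).

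Replicate 1 of 4 weeks thus had the lowest ratio of its time for *Acta1*, *Tnni2*, *Actn3*, *Ckm* and *Atp2a1* and the highest for *Myh1*, *Myh2* and *Myh4*. The members' median log2 ratio on that array was -0.14, against 0.14, 0.23 and 0.044 on the other 4-week arrays and -0.49, -0.54 and -0.51 on the 8-week arrays. Between arrays of 4 weeks the SD of the log2 ratio had a median of 0.184 over the members and 0.123 over all names, and between arrays of 8 weeks of 0.104 and 0.113. For 9 of 10 members the 4-week and 8-week ratios did not overlap, as for 42.2% of all names.

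The separate channels give the level of each gene in each RNA. Control RNA, from mice given saline, held less of several fast muscle transcripts on the 8-week arrays than on the 4-week arrays: 5 of 10 members were lower, beside 12.5% of all names, and 0 of 10 were higher, beside 18.3%. At an unadjusted p of at most 0.05 by limma, 9 of 10 members passed, all of them lower, beside 41.3% of all names in either direction. DEP RNA moved further, with 8 of 10 members lower at 8 weeks, beside 21.5% of all names, and 1 of 10 higher, beside 23.2%. The members' median was -0.48 in control RNA and -1.27 in DEP RNA, against -0.0057 and -0.015 over all names. Levels here are normalized log2 intensities, which were compared within a probe only, apart from the summed intensities of lists given further below. Because the times lie on different slides, a difference of level between them cannot be told apart from a difference between slides. Whether the controls differed in time on saline, or in age at sampling, is not known.

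*Myh1* had the largest fall in control RNA among the members. Its control level was 13.23, 13.21, 13.37 and 13.14 at 4 weeks and 12.10, 12.13 and 12.19 at 8 weeks, so every 8-week array was below every 4-week array. The difference between times was -1.09 in control RNA (SE 0.070, adjusted p = 1.4e-07) and -1.69 in DEP RNA (adjusted p = 9.8e-10). The near-zero ratio of *Myh1* at 8 weeks was therefore measured where both RNAs held less of it than at 4 weeks.

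*Myh4* moved little in control RNA and much in DEP RNA. Its control level was 13.11, 13.09, 13.25 and 13.16 at 4 weeks and 12.91, 12.89 and 12.96 at 8 weeks, a difference of -0.23 (SE 0.069, adjusted p = 0.023) that was lost in 4 of the 7 fits that left out 1 array (adjusted p = 0.057 to 0.10). Its DEP level was 13.00, 12.77, 12.92 and 12.84 at 4 weeks and 13.67, 13.74 and 13.81 at 8 weeks, higher by 0.86 at the later time (adjusted p = 5.6e-07). *Myh2* stayed within -0.22 and 0.17 (95% interval) in control RNA (-0.027, adjusted p = 0.85) and fell by 0.44 in DEP RNA (adjusted p = 0.0017).

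Among the others, *Actn3* (-0.67, adjusted p = 0.00058), *Tnni2* (-0.63, adjusted p = 0.0020) and *Tnnt3* (-0.48, adjusted p = 0.0021) fell in control RNA. The control values of *Mylpf* (-0.69, adjusted p = 0.056, and -0.63 in DEP RNA, adjusted p = 0.056), *Atp2a1* (-0.47, adjusted p = 0.11), *Ckm* (-0.45, adjusted p = 0.11) and *Acta1* (-0.39, adjusted p = 0.067) were of similar size and did not pass. For *Acta1* the control level was 14.70, 14.69, 14.75 and 14.75 at 4 weeks and 14.32, 14.45 and 14.23 at 8 weeks, and its DEP level was 14.17, 14.75, 14.96 and 14.83 and then 13.30, 13.47 and 13.38. The control arrays of the 2 times did not overlap for *Acta1*, nor did the DEP arrays. Control levels did not overlap between times for 7 of 10 members, as for 45.5% of all names. In DEP RNA the falls of *Ckm* (-1.75, adjusted p = 1.5e-05), *Actn3* (-1.70, adjusted p = 1.0e-07), *Atp2a1* (-1.46, adjusted p = 9.8e-05), *Acta1* (-1.30, adjusted p = 1.6e-05), *Tnni2* (-1.24, adjusted p = 5.2e-06) and *Tnnt3* (-0.87, adjusted p = 1.2e-05) all passed.

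**Figure D2:**
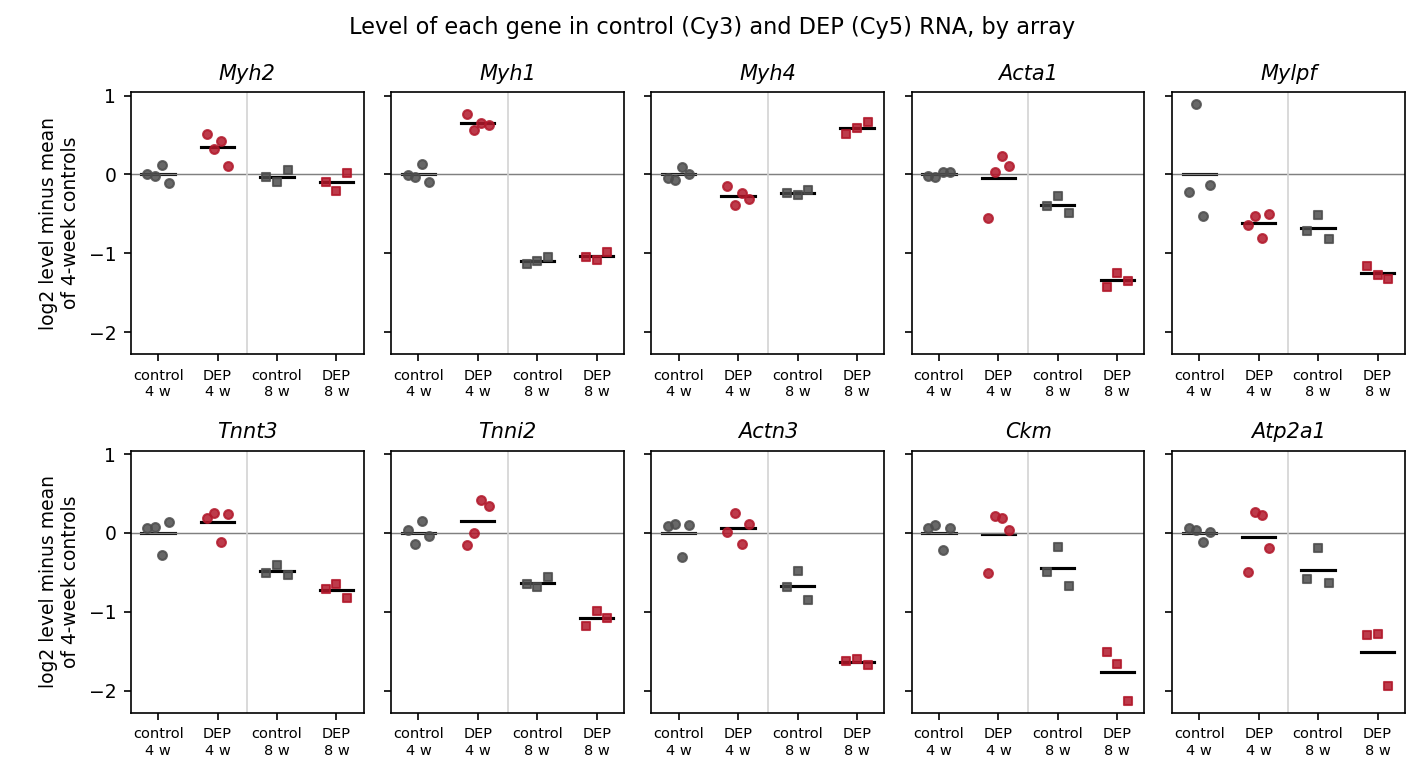
Normalized log2 level of each gene in control RNA (grey) and DEP RNA (red), by array, at 4 weeks (circles) and 8 weeks (squares), minus the mean of the 4-week control arrays of the same gene. Bars are means. *Myh1* fell in both RNAs between the times, *Myh4* stood higher in the DEP RNA of 8 weeks, and *Acta1*, *Actn3*, *Ckm* and *Atp2a1* were lowest in the DEP RNA of 8 weeks.

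**Figure D3:**
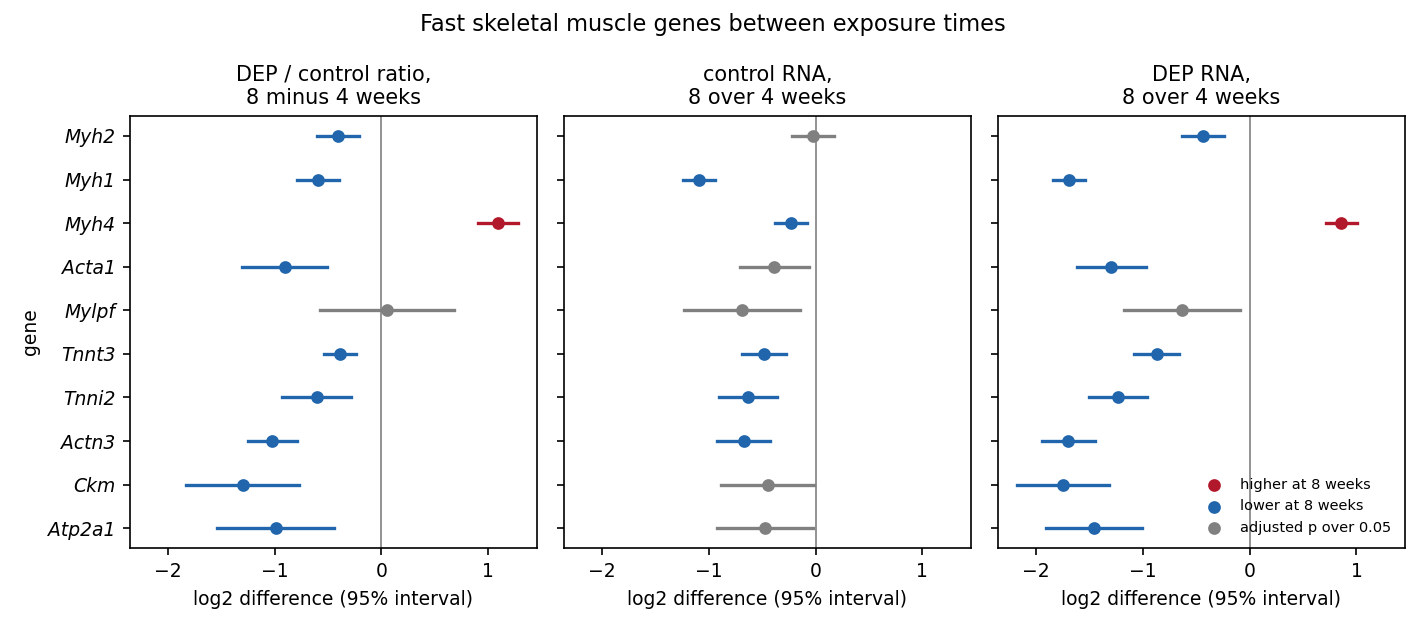
Difference between 8 and 4 weeks of the log2 ratio of DEP over control, of the control level and of the DEP level (3 panels, horizontal axes in log2 units) for each gene, with the 95% interval of the single gene. Red and blue points passed an adjusted p of 0.05 over all probes and grey points did not. The ratio was lower for 8 genes and higher for *Myh4*, and in control RNA 5 genes were lower.

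Other skeletal muscle genes were described by a list of 24, all tested. At 4 weeks 9 of 24 were higher in DEP RNA, beside 21.7% of all names, and 2 of 24 lower, beside 16.4%. At 8 weeks 1 of 24 was higher, beside 20.4%, and 12 of 24 lower, beside 16.9%. The difference between times was lower for 14 of 24, beside 16.1%, and higher for 1 of 24, beside 14.8%. In control RNA 15 of 24 were lower at 8 weeks, beside 12.5%, and 2 of 24 higher, beside 18.3%. Their median log2 ratio was 0.088 at 4 weeks and -0.34 at 8 weeks. At 8 weeks some partners of the members in the sarcomere were lower as well. *Tnnc2*, the fast troponin C, was at -0.35 (adjusted p = 0.011), *Myl1*, the fast essential light chain, at -0.77 (adjusted p = 0.00020), and *Mybpc2*, the fast myosin-binding protein C, at -0.75 (adjusted p = 0.00031). Others did not pass at 8 weeks: *Neb* at 0.037 (adjusted p = 0.89) and *Mybpc1* at -0.078 (adjusted p = 0.39), both named after their values were seen. *Tcap*, which caps titin at the Z-disc, went from 0.67 at 4 weeks (adjusted p = 0.00043) to -0.72 at 8 weeks (adjusted p = 0.00054). *Ttn*, titin itself, was at 0.64 at 4 weeks (adjusted p = 0.00096) and at 0.20 at 8 weeks (adjusted p = 0.15). Myoglobin (*Mb*), which stores oxygen, was at 0.089 (adjusted p = 0.20) and -0.36 (adjusted p = 0.0024), and *Cox6a2*, the muscle form of a cytochrome oxidase subunit, was at -0.10 (adjusted p = 0.31) and -0.68 (adjusted p = 0.00067). The gene that was higher at 8 weeks was *Sln*, sarcolipin, a peptide that restrains the calcium pump, which was named after its value was seen: it was at -0.54 at 4 weeks (adjusted p = 0.00032) and 0.38 at 8 weeks (adjusted p = 0.0029), the directions of *Myh4*. With median centring 0 of 24 were higher at 8 weeks, beside 2536 of 20664 names, and 18 of 24 were lower, beside 6872.

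Genes of slow fibres were listed next. Of 10 tested, 1 was higher and 3 lower at 4 weeks, beside 21.7% and 16.4% of all names. At 8 weeks 2 were higher and 4 lower, beside 20.4% and 16.9%. Between times 1 of 10 differed, with a lower ratio at 8 weeks, beside 16.1% of all names lower and 14.8% higher. The median of the slow list was -0.058 at both times, and 0.017 and -0.25 from the processed signals. From those signals 3 of 10 were lower in the difference, beside 5038 of 20664 names. *Myl2*, the slow regulatory light chain, was at -0.50 (adjusted p = 0.0020) and -0.76 (adjusted p = 0.00046), and *Myoz2*, a Z-disc protein of slow fibres, at -0.32 (adjusted p = 0.0068) and -0.49 (adjusted p = 0.0020). *Tnnt1*, the slow troponin T, was at 0.19 (adjusted p = 0.053) and 0.34 (adjusted p = 0.010), opposite in sign to the 8-week value of the fast form *Tnnt3*. *Atp2a2*, the pump of slow fibres that other cells make too, was at 0.44 (adjusted p = 0.00031) and -0.051 (adjusted p = 0.49). *Tpm3*, the brightest of the list, was at 0.071 (adjusted p = 0.36) and 0.31 (adjusted p = 0.0088). *Tnni1*, the slow troponin I, was at -0.27 (adjusted p = 0.023) and -0.26 (adjusted p = 0.049). It was dim, well above background on 3 arrays in control RNA and 1 in DEP RNA.

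Of 9 tested genes of developing or regenerating muscle 3 were higher and 3 lower at each time. Beside these stand 21.7% of all names higher and 16.4% lower at 4 weeks, and 20.4% and 16.9% at 8 weeks. *Myog*, *Myf5* and *Chrng* of this list of 12 were not well above background on enough arrays to be tested. *Myh8*, the perinatal myosin of the same cluster, was at 0.47 at 4 weeks (adjusted p = 0.00020) and 0.19 at 8 weeks (adjusted p = 0.022), where its sign turned with the processed signals of the scanner software. *Myh3*, the embryonic one, was at 0.29 (adjusted p = 0.0090) and -1.07 (adjusted p = 3.2e-05). Others of the list went other ways: *Actc1* was at -0.52 and -0.91 (adjusted p = 0.00050 and 5.4e-05), *Myf6* at -0.48 and -0.11 (0.00023 and 0.15). *Mymk* was at 0.19 and 0.57 (adjusted p = 0.055 and 0.0010), and *Ncam1* at 0.59 and -0.12 (0.00015 and 0.16). Between times the ratio was lower for 4 of 9 and higher for 2 of 9, beside 16.1% and 14.8% of all names. Of 4 myosins in a list meant for extraocular and other craniofacial muscles, 1 was higher and 2 lower at 4 weeks, and 3 were lower at 8 weeks. *Myh13* was at -0.56 (adjusted p = 0.00026) and -0.81 (adjusted p = 6.3e-05). The gene higher at 4 weeks, and the brightest of the list, was *Myh14*, a nonmuscle myosin heavy chain whose signal need not come from muscle. It was at 0.80 (adjusted p = 0.0015) and -0.35 (adjusted p = 0.073), with a difference of -1.15 (adjusted p = 0.0026). Of 5 tested genes of muscle wasting, 1 was higher and 1 lower at 4 weeks: *Foxo1* at 0.24 (adjusted p = 0.019) and *Trim63* at -0.40 (adjusted p = 0.00072). At 8 weeks 0 passed by limma and 2 had an unadjusted p of at most 0.05, beside 47.0% of all names. *Trim63* was then at -0.14 (adjusted p = 0.084) and *Fbxo32* at 0.011 (adjusted p = 0.89), both ubiquitin ligases of atrophying muscle. From the processed signals, and with median centring, 2 of 5 were lower at 8 weeks, beside 3963 and 6872 of 20664 names. The ratio differed between times for *Trim63* (0.26, adjusted p = 0.035) and *Foxo1* (-0.43, adjusted p = 0.012). In control RNA 2 of 5 were lower at 8 weeks, beside 12.5% of all names, and 0 of 5 higher, beside 18.3%. *Trim63* was at -0.85 there (adjusted p = 4.8e-07).

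Genes of smooth and cardiac muscle and nonmuscle relatives of the members were listed as well. Beside the counts called here stand 21.7% of all names higher and 16.4% lower at 4 weeks, and 20.4% and 16.9% at 8 weeks. Of 7 smooth muscle genes 1 was higher and 4 lower at 4 weeks, and 4 were lower at 8 weeks. Between times 0 of 7 differed by limma, also at an unadjusted p of at most 0.05, beside 42.6% of all names at that p. Of 5 cardiac genes 0 passed at either time by limma, with 1 at 4 weeks and 2 at 8 weeks at an unadjusted p of at most 0.05, beside 48.0% and 47.0% of all names. From the processed signals 3 of 5 were higher at 4 weeks, with a median of 0.61 in place of 0.10. Over all names 6369 of 20664 were then higher, with a median of 0.092. At 8 weeks 1 of 5 was lower from those signals, beside 3963 of 20664 names. Of 9 nonmuscle paralogs 3 were higher at 4 weeks, and 3 were higher and 2 lower at 8 weeks. The cytoplasmic actins *Actb* (0.24 and -0.071, adjusted p = 0.18 and 0.76) and *Actg1* (-0.15 and 0.22, adjusted p = 0.069 and 0.033) are made in nearly all cells, and the 8-week sign of *Actg1* turned with the processed signals. *Ckb*, the brain creatine kinase, was at 0.56 (adjusted p = 0.0012) and -0.37 (adjusted p = 0.013).

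**Figure D4:**
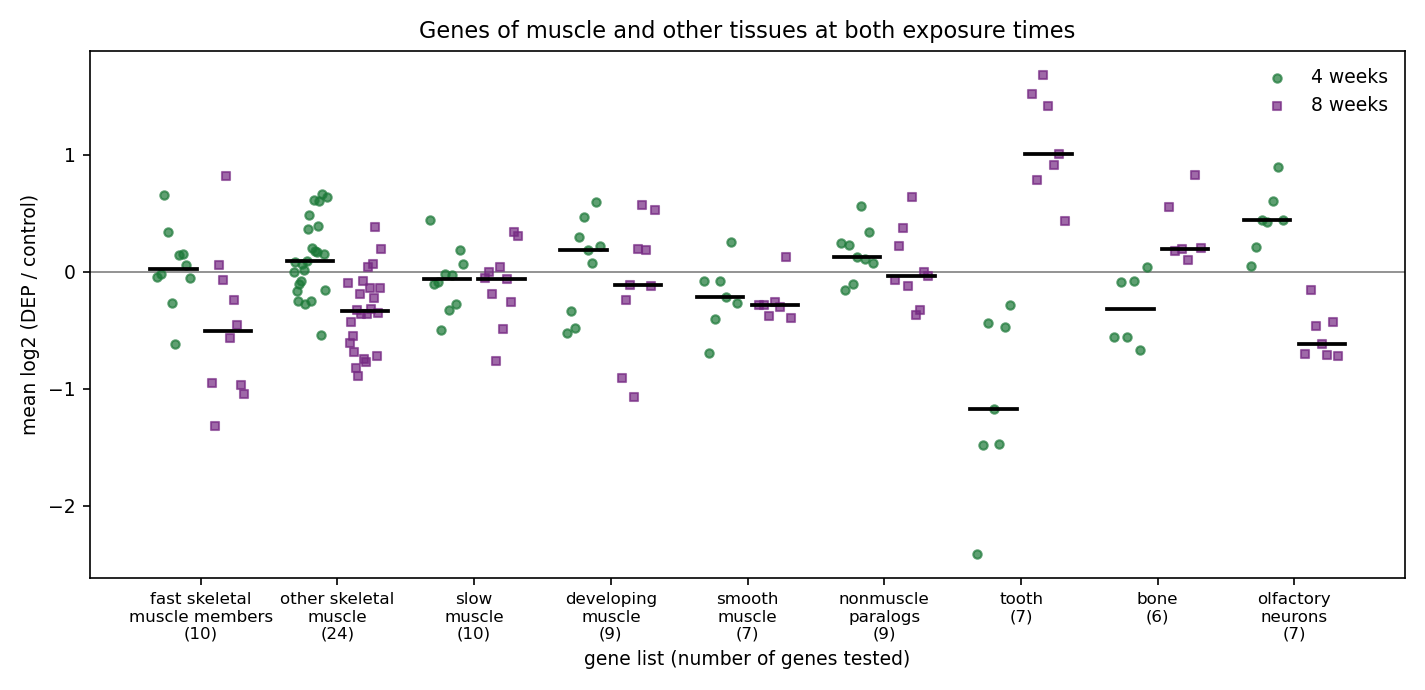
Mean log2 ratio of DEP over control (vertical axis) of every tested gene in lists of muscle and other tissues (horizontal axis, number of genes in brackets) at 4 weeks (circles) and 8 weeks (squares), with the median of each list as a bar. The fast muscle genes and the other skeletal muscle genes had lower medians at 8 weeks, the median of the slow muscle genes was -0.058 at both times (0.017 and -0.25 from the processed signals), and genes of tooth and of olfactory neurons moved in opposite directions.

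Markers of other tissues of the nasal cavity and its surroundings also moved between the exposure times, and their part in the muscle values was not tested. All 7 tooth genes were tested, 6 of 7 were lower in DEP RNA at 4 weeks and 7 of 7 higher at 8 weeks. Their summed intensity was 16200 to 17400 in control RNA and 5400 to 6020 in DEP RNA at 4 weeks, and 44900 to 45600 and 78800 to 103000 at 8 weeks. Of the 7 genes of olfactory neurons 5 were higher at 4 weeks and 6 lower at 8 weeks, and their summed intensity was 68400 to 83500 in control RNA and 128000 to 146000 in DEP RNA at 4 weeks, and 113000 to 131000 and 86700 to 89000 at 8 weeks. The members themselves summed to 143000 to 153000 in control RNA and 145000 to 180000 in DEP RNA at 4 weeks, and to 103000 to 107000 and 81300 to 86200 at 8 weeks. In control RNA the tooth and olfactory sums were thus higher at 8 weeks and the muscle sum lower, as was that of 7 nasal gland genes (533000 to 558000 at 4 weeks and 385000 to 411000 at 8 weeks) and that of 8 fat genes (5430 to 5800 and 3650 to 3950). Each sum adds different probes and follows the brightest, such as *Tnni2* among the members and *Pck1* among the fat genes. In control RNA *Pck1* was at -1.07 between times (adjusted p = 1.6e-05) and *Adipoq* at -0.052 (adjusted p = 0.83). Of the 8 fat genes 3 were lower and 1 higher there, beside 12.5% and 18.3% of all names. Of 7 genes of squamous epithelium 7 were lower at 4 weeks, and 4 were lower and 1 higher at 8 weeks. Of 8 fat genes, 6 were lower at 4 weeks and 5 at 8 weeks, and of 6 bone genes 3 were lower at 4 weeks and 3 higher at 8 weeks. Over all names 21.7% were higher and 16.4% lower at 4 weeks, and 20.4% and 16.9% at 8 weeks.

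The genes whose pattern was most like that of the members were ranked by Pearson correlation of their log2 ratio with the members' median over the 7 arrays, as a description with no test, since the arrays fall into 2 times. *Slc48a1*, a haem transporter, came first (r = 0.999), followed by *Ube2f* (0.995) and *Hbb-b2*, a β-globin of red cells (0.993). Within the times, after each time's mean was removed, these gave 0.992, 0.961 and 0.992. For the members, of whose values the median is made, r was 0.985 for *Ckm*, 0.98 for *Acta1*, 0.967 for *Actn3*, 0.823 for *Myh1* and -0.97 for *Myh4*. Within the times *Myh1* stood at -0.881 and *Myh4* at -0.846, opposite to *Ckm* (0.922) and *Acta1* (0.903). For control levels the first genes were *Cited4* (0.998), a transcriptional coactivator, and *Card10*, and none of the 10 nearest genes in either ranking belongs to the muscle lists.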

How the data were processed

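For each array the authors deposited the text output of Agilent Feature Extraction 10.10.1.1, whose median intensity values of spots and local backgrounds are neither background-subtracted nor normalized. The GeneSpring normalization of the study was not repeated. The background was corrected by normexp (offset 50) in limma 3.58.1 (R 4.3.3), fitted without spots marked as background outliers and applied to every spot. Log2 ratios of Cy5 (DEP) over Cy3 (control) were normalized by loess with control spots at weight 0. Nonuniform spots were left out, repeated spots were averaged, and 28330 probes were named by accession through RefSeq. No spot was saturated. A linear model over 7 arrays gave 1 mean per exposure time and their difference. Channel levels (Aquantile) were fitted separately by channel with an intraspot correlation of 0.399, over the 24816 probes with no missing array. p-values were adjusted by Benjamini-Hochberg over all tested probes. The steps were tested on simulated arrays. Precision is limited by the number of arrays, which have no counting error.

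The members and all gene lists were chosen with earlier results of these data known. All 10 members are named. Of each other list the text draws on its 3 brightest genes and those called at both times or in the difference, at most 6, and as most alike the 10 genes with the highest correlation to the members' median. *Sln*, *Neb* and *Mybpc1* were named outside this rule. Alternatives changed the background correction, starting signals, normalization, filter on dim probes, arrays in the model, test, probe per gene and replicate block, and left out each array in turn.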

Additional observations from a re-analysis of the deposited data

Results flagged for a closer look

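For 5 values, a single 4-week array stood apart from the other 3 arrays of that time, by a gap to the nearest array that was large for the range (Dixon's criterion), among 30 values examined, of which chance would give about 1 in 20. On replicate 3 the control log2 level of *Ckm* was 12.54, against 12.81 to 12.86 on the others, that of *Actn3* was 9.446, against 9.834 to 9.869, and the DEP log2 level of *Tnnt3* was 14.21, against 14.52 to 14.58. On replicate 1 the log2 ratio of *Myh4* was -0.1072, against -0.3288 to -0.316. On replicate 2 the log2 ratio of *Mylpf* was -1.416, against -0.4153 to -0.2858.

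The ratio of DEP over control differed between 8 and 4 weeks, by the limma test of the difference itself, for 9 members. The log2 differences were 1.09 for *Myh4*, -0.3871 for *Tnnt3*, -0.4099 for *Myh2*, -0.5948 for *Myh1*, -0.6062 for *Tnni2*, -0.9069 for *Acta1*, -0.9915 for *Atp2a1*, -1.023 for *Actn3* and -1.301 for *Ckm*, with adjusted p from 0.00011 to 0.017. In these differences exposure time cannot be told apart from slide, nor from any difference of age at sampling.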

How the results depend on the processing

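The members' median log2 ratio at 8 weeks was -0.51, and -0.48 with the background fitted on every spot, -0.75 from the processed signals and -0.57 with median centring, which also moved the median difference between times from -0.60 to -0.73 and turned *Myh1* at 8 weeks to -0.20. At 4 weeks 1 member was lower from the 4-week arrays alone, and by the methods' t-test 1 was higher and 1 lower. At 8 weeks 1 member in place of 2 passed the study's thresholds by that test, beside 2.83% of all names. It also lost the calls of *Myh2* at 4 weeks (adjusted p = 0.063) and of *Atp2a1* (0.063) and *Tnnt3* (0.077) at 8 weeks. Leaving out each array in turn gave medians of -0.051 to 0.13 at 4 weeks, -0.52 to -0.50 at 8 weeks, -0.63 to -0.55 for the difference and -0.58 to -0.42 for control RNA, where the lowest came without replicate 2 of 8 weeks. The labels do not say that a replicate number is shared between times. Correlations of deviations were -0.0077 to 0.016 for equal numbers and -0.050 to 0.067 for unequal ones, which cannot exclude a pairing. With the replicate block 5 members were lower at 8 than at 4 weeks in place of 8, as *Ckm* (adjusted p = 0.051), *Tnni2* (0.051) and *Atp2a1* (0.084) missed the threshold, while the names called fell from 6394 to 3214. *Mylpf* at 4 weeks was lost from the 4-week arrays alone (adjusted p = 0.075) and by the methods' t-test (0.23). The cause of these shifts was not tested. Arrays without dye swap and 3 or 4 arrays a time limit all values.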
